A study of Mus musculus with 9 samples.

Results

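The account below concerns 38 genes of the NF-kB pathway and of the inflammatory response it controls, as measured by RNA-seq in primary mouse embryonic neural stem cells. They were chosen by symbol, 38 of 54232 gene identifiers in the count table, and all 38 were found. They comprise 5 NF-kB subunits, 6 inhibitors and other IkB family regulators, 7 receptors, 5 adaptors and ligases, 5 chemokines, 4 cytokines, 2 adhesion receptors and 4 enzymes and effectors. Of these, 31 passed the expression filter, as did 17602 genes in all.

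All cells were treated with a short hairpin RNA, a transcript that the cell processes into a small RNA that lowers the messenger RNA it matches. The control group received a non-targeting hairpin, shNT, and the other groups received sh900 or sh902, both directed at Phf2, whose product belongs to a family of histone demethylases. The tissue label is the subventricular zone of the brain, and the cells of every group grew on laminin with FGF at 10 ng/mL and EGF at 20 ng/mL until RNA was taken 3 days after treatment. No strain, genotype or animal age is given in the labels used here. Each group held 3 libraries: 1 without a date in its title, 1 labelled 30 August and 1 labelled 3 September. What a date marks, and whether replicates came from separate cultures or animals, is not stated, so each p-value reflects only how far these libraries scatter, and part of that scatter may be technical.

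NF-kB is a family of dimeric transcription factors held in the cytoplasm by IkB proteins. Signals from Toll-like, interleukin-1 and tumour necrosis factor receptors pass through adaptors such as MyD88 and the TRAF proteins to the IkB kinases, IkB is degraded, and the dimers enter the nucleus and bind kappaB motifs. Many targets are chemokines, cytokines and adhesion receptors, and some, such as Nfkbia and Tnfaip3, encode inhibitors that close the loop. In neural stem cells the pathway is known for its part in growth and in the response to injury and inflammation.

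Gene positions are those of GENCODE M21 on GRCm38. Levels are given as CPM, counts scaled to library size with TMM factors, in the order undated, 30 August, 3 September. Fold changes are on the log2 scale, from edgeR's quasi-likelihood test with Benjamini-Hochberg adjustment over 17602 genes, and a gene was called at an adjusted p under 0.05. Library totals ran from 23212472 to 32392496 counts, so that 3 counts corresponded to 0.0914 to 0.128 CPM. Phf2 was at 56.3, 52.8 and 48.6 CPM with shNT, at 19.8, 14.9 and 25.5 with sh900 and at 25.0, 17.0 and 28.1 with sh902. The hairpin libraries all lay below the controls (two-sided exact permutation test over 84 assignments, p = 0.0119). In edgeR's test Phf2 differed by -1.28 ± 0.20 without the date label (adjusted p = 0.182) and by -1.32 ± 0.16 with it (adjusted p = 0.00519). All 12 neural stem and progenitor markers passed the filter. They summed to 7490 to 8926 CPM with shNT, 9288 to 14376 with sh900, a range above the controls, and 8133 to 10700 with sh902. Vim weighs heavily in these sums, at 1759 to 2946 CPM with shNT and 3631 to 7563 with sh900. Nes, Vim, Hes1 and Fabp7 were above the same-label control in every sh900 library. Pax6, Hes5, Slc1a3, Msi1 and Notch1 were below it in every one, so the sum does not describe each marker. Of the 12 markers, 2 were called higher and 2 lower for the mean of the hairpins with the date label in the model, and their part in the member values was not tested. In bulk RNA, fewer cells of a type and less RNA per cell cannot be told apart.

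The promoters of several members carry the binding motif of the family. RefSeq promoter sequences on GRCm38.p6, from 250 bases before to 50 bases after a transcription start, were found for 31 of the 38 members. No entry was found for Nfkb1, Relb, Nfkbiz, Tlr4, Ccl2, Ccl7 and Vcam1. The kappaB consensus, searched on both strands, was present in 15 of the 31 (48.4%) and in 1388 of 27025 genes in the table (5.14%). It occurred in 4.51% of all 32851 promoters. Known NF-kB targets were among the reasons for which members were listed. Among members in the table it was present in 3 of the 7 called against shNT in the pooled hairpin comparison (42.9%) and in 3 of the 7 that failed the filter (42.9%). A match describes these letters and not a bound site.

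The stretches around the match in 6 members are shown because they span the outcomes described below: 2 inhibitor genes of the feedback loop, a receptor, a chemokine called with sh900, its neighbour that was almost silent, and a growth factor. Capitals mark the kappaB match, and each stretch reads 5′ to 3′ on the strand of the gene and lies upstream of the start. The Tnfaip3 promoter holds another match, at position -125, and the one nearer the start, at -12, is shown.
Nfkbia (chr12:55492648-55492716, minus strand): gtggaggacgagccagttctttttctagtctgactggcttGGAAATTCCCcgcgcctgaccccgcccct
Tnfaip3 (chr10:19015411-19015462, minus strand): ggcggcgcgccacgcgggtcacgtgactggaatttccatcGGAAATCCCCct
Tlr3 (chr8:45410542-45410630, minus strand): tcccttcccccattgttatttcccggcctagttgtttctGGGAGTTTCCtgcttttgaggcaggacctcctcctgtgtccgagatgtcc
Cxcl1 (chr5:90891134-90891224, plus strand): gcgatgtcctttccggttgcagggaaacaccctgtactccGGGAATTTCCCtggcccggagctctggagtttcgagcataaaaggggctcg
Cxcl2 (chr5:90903762-90903852, plus strand): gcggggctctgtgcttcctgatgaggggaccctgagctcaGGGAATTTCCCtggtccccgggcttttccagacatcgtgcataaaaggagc
Csf1 (chr3:107760574-107760663, minus strand): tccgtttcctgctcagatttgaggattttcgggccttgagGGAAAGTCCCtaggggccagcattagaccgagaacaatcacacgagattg
The match in Cxcl1 begins at position -71 from the start and that in Cxcl2 at -97, and both hold the same 11 letters in a run. Cxcl1 was measured at up to 2.70 CPM and Cxcl2 at no more than 0.119 CPM.

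With the date label in the model, 4 of 6 tested receptors, 3 of 3 tested chemokines, 2 of 2 tested cytokines and 1 of 2 adhesion receptors were called higher for the mean of the hairpins, and 0 of 5 NF-kB subunits were called. The 3 chemokines, Tlr4 and Icam1 reached the filter cutoff in fewer than 3 control libraries, so they passed only with hairpin libraries counted. With sh902 by itself 0 of 3 chemokines were called, and another 2 chemokines and 2 cytokines did not pass the filter. For the mean of both hairpins against shNT, 10 of 31 members were called higher and 0 lower, where 6.08% of all genes were called higher and 5.59% lower. The 10 were Tlr3, Tlr4, Il1rap, Tnfrsf1a, Ccl2, Ccl7, Cxcl1, Lif, Csf1 and Icam1. With sh900 12 were called higher and 0 lower (5.39% and 3.45% of all genes), and with sh902 6 higher and 0 lower (5.12% and 5.39%). Without the date label, edgeR called 0 members and 0% of all genes with either hairpin, with their mean or between the hairpins. At an unadjusted p under 0.05 that fit held 12 of 31 members for the mean, 14 for sh900, 5 for sh902 and 4 for sh902 against sh900, among 2809, 2585, 2776 and 2532 genes in all.

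DESeq2 without the date label called 6, 7 and 4 members for the mean, sh900 and sh902, all higher, where it called 4.29%, 4.47% and 4.82% of all genes. It called 1 member, lower, for sh902 against sh900 (5.88% of all genes, with 2 members given no adjusted p). With the date label it called 14, 14, 9 and 8 members in these comparisons, against 17.1%, 14.7%, 16.1% and 10.1% of all genes. Of these, 12 were higher and 2 lower for the mean (Traf1 and Vcam1), 13 higher and 1 lower with sh900 (Vcam1), and 7 higher and 2 lower with sh902 (Vcam1 and Ptx3). For sh902 against sh900 this fit called 1 higher, Tlr4, and 7 lower. Every edgeR call below is from the fit with the date label. These calls rest on few libraries: without the undated control, 4 members remained called for the mean, and on the 6 dated libraries alone 0 did. A member had to reach 0.376 CPM in 3 libraries to be tested, and Tlr4, Ccl7 and Cxcl1 reached it in no control library. Those 3 could therefore be tested only because a hairpin group was high. Ccl2, Icam1, Traf1, Ptgs2, Ptx3 and Tnfaip2 reached it in 2 control libraries and so needed at least 1 hairpin library to pass. The counts above are therefore a description of the list.

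**Figure D1:**
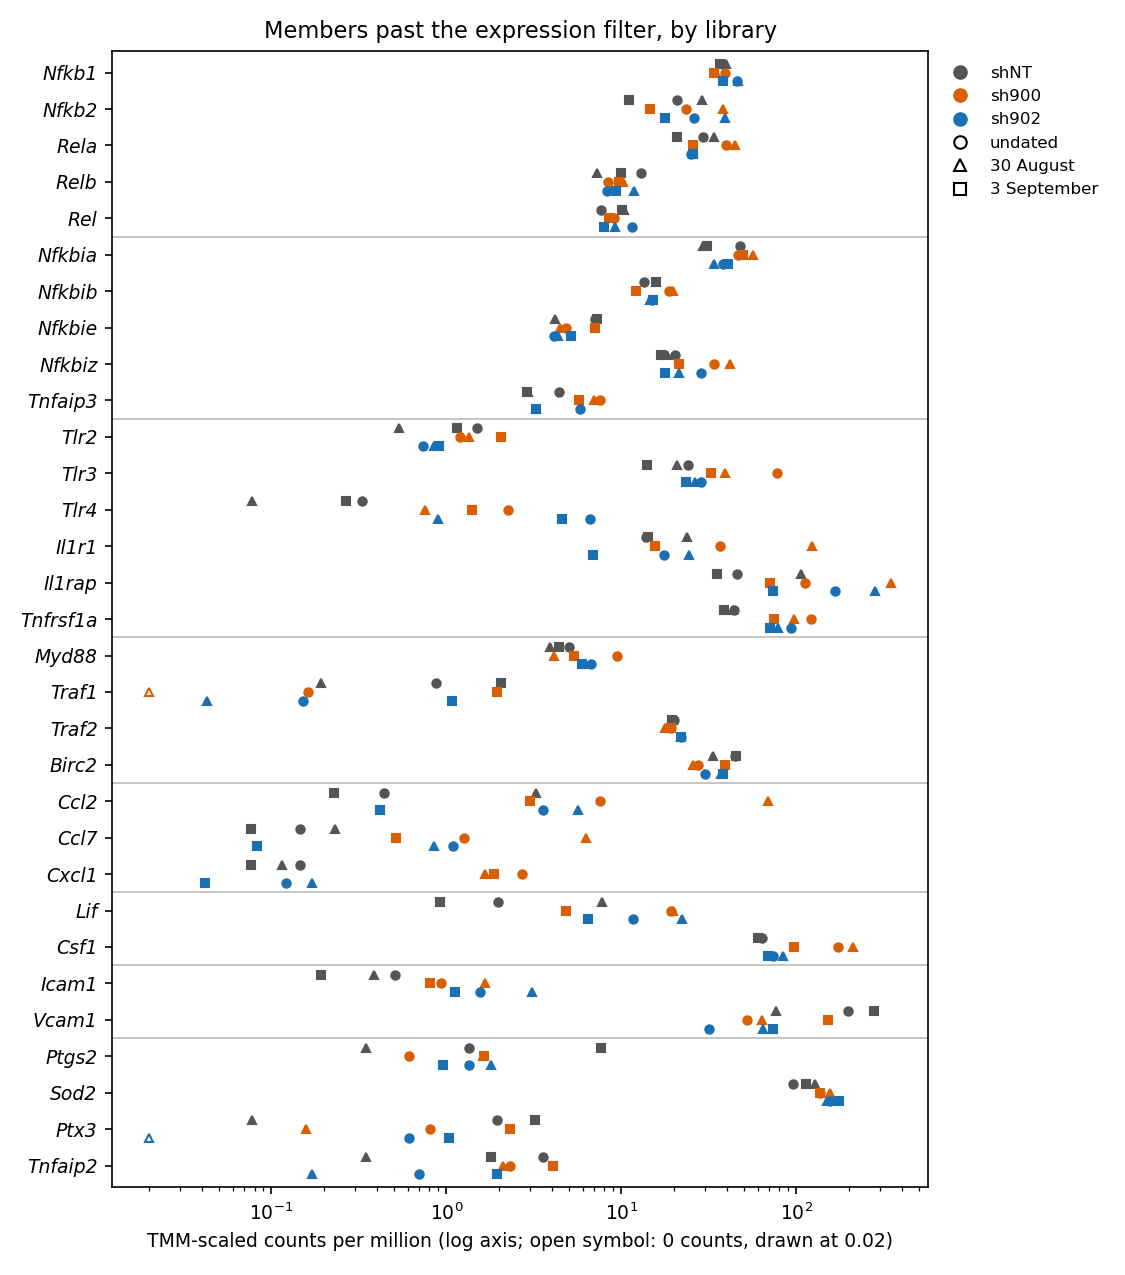
Each row is a member that passed the filter, in blocks by role; the horizontal log axis is TMM-scaled CPM, colour gives the hairpin and symbol the label of the library. Tlr4, Tnfrsf1a, Csf1, Icam1 and Sod2 have all 6 hairpin libraries to the right of all 3 controls, while subunits such as Rel and Relb overlap.

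Separation of the libraries needs no model. In 5 of the 31 tested members, Tlr4, Tnfrsf1a, Csf1, Icam1 and Sod2, all 6 hairpin libraries lay above all 3 controls, and in 0 they lay below; among all genes these shares were 3.37% and 3.03%. Against the control of the same label, 14 members were higher in 6 of 6 hairpin libraries: Nfkb2, Nfkbiz, Tnfaip3, Tlr3, Tlr4, Il1rap, Tnfrsf1a, Myd88, Ccl2, Ccl7, Lif, Csf1, Icam1 and Sod2. Traf1 and Vcam1 were lower in 6 of 6. Among all genes, 12.8% were higher in 6 of 6 and 12% lower. Tlr4, in both counts, and Ccl7, in the latter, reached the filter cutoff in no control library. They were tested only because a hairpin group was high and add nothing to these counts. Icam1 and Ccl2 also needed at least 1 hairpin library to pass. For Ccl7 the 3 September sh902 library and its control both had 2 counts, so that library shows no direction. For Traf1 the 3 September sh900 library had 53 counts and its control 54, which shows no clear direction either. The undated libraries share only the lack of a date, so their ratios may not be between paired libraries.

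None of the 5 NF-kB subunit genes was called with either hairpin. Nfkb1 (chr3:135584655-135691547) encodes p105, the precursor of p50, and was at 37.998, 39.5 and 36.4 CPM with shNT, at 39.0, 34.9 and 33.8 with sh900 and at 45.6, 46.2 and 37.9 with sh902. The groups overlapped, and Nfkb1 with the hairpins pooled was 0.05 ± 0.11 (SE) from shNT, with a 95% interval of -0.20 to 0.30 (adjusted p = 0.811). Rela, the gene of the transactivating subunit p65, was at 20.9 to 33.9 CPM with shNT, 25.7 to 44.5 with sh900 and 24.9 to 25.6 with sh902. With sh900 Rela was 1.23 to 1.35 times its same-label control. Rela had all sh902 libraries below all sh900 libraries, with a difference that was not called (-0.48 ± 0.18, adjusted p = 0.161). Relb, of the alternative pathway, and Rel, which encodes c-Rel, were -0.06 ± 0.23 and -0.03 ± 0.19 from shNT with the hairpins pooled. For Relb this averages ratios to the same-label control that ran from 0.643 to 1.62 times. Nfkb2 encodes the p52 precursor p100 and was higher than its same-label control in 6 of 6 hairpin libraries, by 1.12 to 1.59 times; its mean difference of 0.40 ± 0.12 was not called (adjusted p = 0.0742). Per kilobase of exon, Rela was the most abundant subunit gene at a mean of 9.76 CPM and Rel the least at 1.24.

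Among the inhibitors, 2 feedback regulators were called with sh900 and none with sh902. Nfkbia (chr12:55489410-55492647) encodes IkB alpha, the main cytoplasmic inhibitor, and was at 47.4, 29.3 and 30.7 CPM with shNT, 46.4, 56.4 and 49.3 with sh900 and 38.01, 33.6 and 40.7 with sh902. Its undated control library lay within the sh900 range, and the mean difference of 0.31 ± 0.17 was not called (adjusted p = 0.284). Nfkbiz (chr16:55811375-55838899) encodes the nuclear regulator IkB zeta and was at 20.2, 18.1 and 16.7 CPM with shNT, 34.1, 41.5 and 21.2 with sh900 and 28.4, 21.4 and 17.8 with sh902. The sh900 libraries all lay above the controls, whereas those of sh902 overlapped them. Nfkbiz was called with sh900 (0.77 ± 0.20, adjusted p = 0.0477), and that call held in 1 of 9 fits that each left out a library. With sh902 the difference was 0.27 ± 0.19 (adjusted p = 0.402), and sh902 differed from sh900 by -0.50 ± 0.19, which was not called (adjusted p = 0.176).

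Tnfaip3 (chr10:19000910-19015657) encodes A20, a ubiquitin-editing enzyme that shuts the pathway off. It was at 4.38, 2.92 and 2.90 CPM with shNT, 7.53, 6.93 and 5.76 with sh900 and 5.79, 3.25 and 3.24 with sh902. All sh900 libraries were above the controls and those of sh902 overlapped them. Tnfaip3 was called with sh900 (1.01 ± 0.23, adjusted p = 0.0369), which held in 2 of 9 left-out fits, with adjusted p values up to 0.168. Its difference with sh902 was 0.25 ± 0.23 (adjusted p = 0.541), and that between the hairpins, -0.76 ± 0.23, was not called (adjusted p = 0.103). The promoter of Tnfaip3 shown above and that of Nfkbia both carry a kappaB match, while Nfkbiz had no entry. Nfkbib and Nfkbie, which encode the other IkB proteins beta and epsilon, differed by 0.07 ± 0.18 and -0.30 ± 0.21 for the mean. Bcl3, a nuclear IkB family member, did not pass the filter; it had 43, 1 and 14 counts with sh900 and at most 7 in any other library.

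Of the 6 tested receptors, 4 were called for the mean, and for Tnfrsf1a and Il1rap that call held in 9 of 9 fits that each left out a library. The call of Tlr4 held in 9 of 9 as well, but no control library reached the cutoff, so Tlr4 was tested only because the hairpin groups were high and its direction was fixed by the filter. Tlr4 (chr4:66827584-66930284), the receptor for bacterial lipopolysaccharide, was at 0.329, 0.0769 and 0.267 CPM with shNT, 2.25, 0.753 and 1.39 with sh900 and 6.58, 0.897 and 4.56 with sh902. These levels rest on 18 counts in all with shNT, 127 with sh900 and 347 with sh902. Every hairpin library lay above every control, and in each group the 30 August library was the lowest. Summed over a group, Tlr4 was 6.72 times as high with sh900 as with shNT (95% exact interval 4.08 to 11.7, for counting error only) and 19.1 times with sh902 (11.9 to 32.6). In the fit it was called with sh900 (2.78 ± 0.42, adjusted p = 0.0118) and with sh902 (4.02 ± 0.41, adjusted p = 0.00547). The call for sh902 held in 9 of 9 left-out fits and that for sh900 in 6 of 9; the latter was lost without the undated control (adjusted p = 0.0708) and without the undated or 30 August sh900 library (0.0649 and 0.0527). The hairpins differed by 1.24 (95% interval 0.45 to 2.03, adjusted p = 0.0822), which was not called.

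Tnfrsf1a (chr6:125349362-125362484) encodes the main receptor for tumour necrosis factor. It was at 44.2, 43.6 and 38.5 CPM with shNT, 121, 96.7 and 74.6 with sh900 and 93.8, 78.5 and 70.8 with sh902. No hairpin library overlapped the controls, and within the hairpin groups the undated library was the highest. Tnfrsf1a was called with sh900 (1.19 ± 0.13, adjusted p = 0.00599) and with sh902 (0.93 ± 0.13, adjusted p = 0.0095). The calls for the mean and for sh900 held in 9 of 9 left-out fits; that for sh902 was lost without the undated or the 3 September sh902 library (adjusted p = 0.0696 and 0.0513). The difference between the hairpins was -0.25, with a 95% interval of -0.56 to 0.05. Without the date label, Tnfrsf1a differed by 1.08 ± 0.18 for the mean, with an adjusted p of 0.182.

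Il1rap (chr16:26581704-26730117) encodes the accessory chain that interleukin-1 and related receptors need to signal. It was at 45.6, 107 and 35.1 CPM with shNT, 113, 348 and 71.0 with sh900 and 167, 283 and 73.8 with sh902. The groups overlapped across labels, since the 30 August library was the highest of each group, but each hairpin library was above the control of its own label, by 2.02 to 3.65 times. Il1rap was called with sh900 (1.35 ± 0.20, adjusted p = 0.0111) and with sh902 (1.46 ± 0.20, adjusted p = 0.00896). The call for the mean held in 9 of 9 left-out fits and that for sh902 in 8, being lost without the undated sh902 library (adjusted p = 0.0583). For sh900 it held in 6 of 9, with adjusted p values of 0.0503 to 0.0635 without the undated control, the undated sh900 or the 30 August sh900 library. The hairpins differed by 0.11 (95% interval -0.34 to 0.56). Without the date label, Il1rap differed by 1.49 ± 0.65 (adjusted p = 0.313).

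Tlr3 (chr8:45395665-45411080), the endosomal receptor for double-stranded RNA, was called with sh900 alone. It was at 23.9, 20.7 and 14.0 CPM with shNT, 77.5, 39.1 and 32.4 with sh900 and 28.4, 26.5 and 23.4 with sh902. All sh900 libraries lay above all others, and the sh902 range overlapped the controls. Tlr3 was called with sh900 (1.29 ± 0.21, adjusted p = 0.0142) and not with sh902 (0.46 ± 0.21, adjusted p = 0.191). The difference between hairpins was -0.84 ± 0.21 (adjusted p = 0.0641), so a difference between them was not called either. For sh900 the call of Tlr3 held in 6 of 9 left-out fits, with adjusted p values of 0.0600 to 0.0765 in the others, and for the mean in 5 of 9 (0.0544 to 0.141). Of the remaining receptors, Il1r1, the signalling chain for interleukin-1, reached 122 CPM in the 30 August sh900 library and was at 6.89 to 36.9 CPM in the other 8. Il1r1 was not called with sh900 (1.32 ± 0.43, adjusted p = 0.107) or with sh902 (-0.26 ± 0.42). Tlr2, a receptor for bacterial lipoproteins, was at 0.538 to 2.05 CPM and was not called, and Tnfrsf1b, the other receptor for tumour necrosis factor, had at most 6 counts in a library.

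None of the adaptors and ligases was called. Birc2 (chr9:7818227-7837064) encodes the ubiquitin ligase cIAP1 and was at 44.5, 33.4 and 45.1 CPM with shNT, 27.5, 25.6 and 39.1 with sh900 and 30.1, 37.3 and 38.1 with sh902. Its groups overlapped, and the mean differed by -0.32 ± 0.15 (adjusted p = 0.19). Myd88, the adaptor of Toll-like and interleukin-1 receptors, differed by 0.48 ± 0.23 (adjusted p = 0.203), with each hairpin library above its same-label control. Myd88 overlaps exons of Acaa1a on the other strand, and nothing in the labels says that strand was kept, so reads of this pair cannot be told apart; the same holds for Nfkb2 with Psd and for Nfkbib with Sirt2. Traf2, an adaptor of the tumour necrosis factor receptor, was at 17.7 to 21.8 CPM in all 9 libraries and was the one member with all sh902 libraries above all sh900 libraries. Traf1, its inducible relative, was below its same-label control in 6 of 6 hairpin libraries but was not called (-1.57 ± 0.55, adjusted p = 0.104). It had 24, 5 and 54 counts with shNT, 5, 0 and 53 with sh900 and 5, 1 and 26 with sh902. Birc3, which encodes cIAP2, had 2 to 17 counts per library and did not pass the filter.

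**Figure D2:**
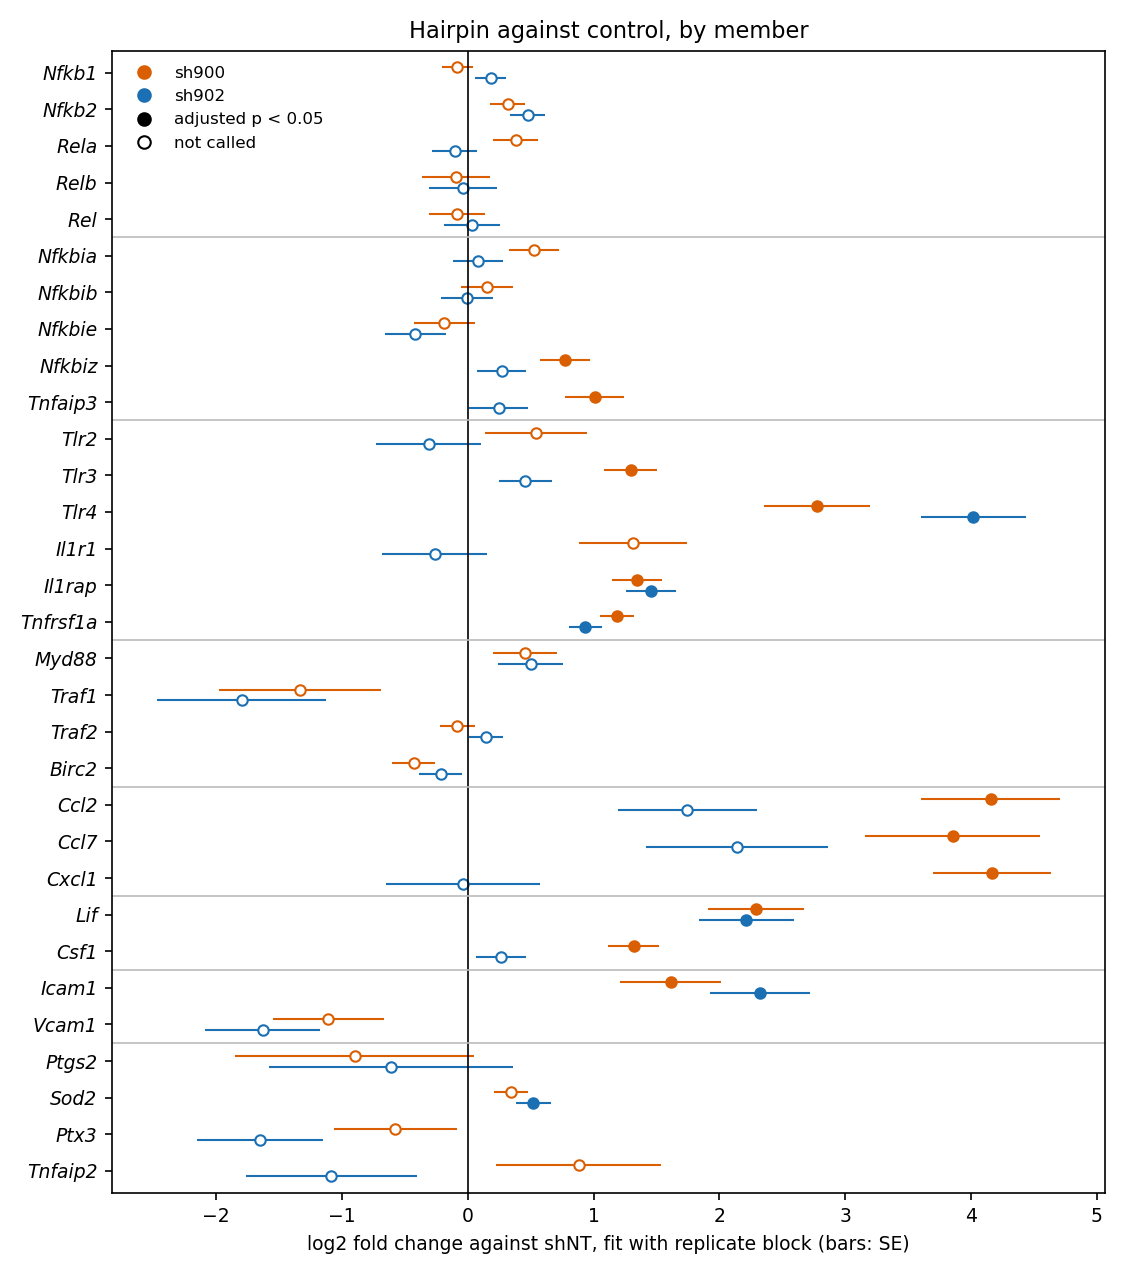
The horizontal axis gives the log2 fold change of each tested member against shNT in the fit with the date label, for sh900 and sh902, with bars of 1 standard error and filled symbols at an adjusted p under 0.05. Filled symbols stand on the positive side for both hairpins, 12 for sh900 and 6 for sh902.

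Of the 3 tested chemokines, all were called with sh900, none with sh902, and 2 were called lower with sh902 than with sh900. Ccl2 (chr11:82035571-82037453), which attracts monocytes, was at 0.438, 3.23 and 0.229 CPM with shNT, 7.59, 69.3 and 3.01 with sh900 and 3.56, 5.64 and 0.415 with sh902. Within each label sh900 was highest and shNT lowest, but the groups overlapped across labels because the 30 August libraries were the highest of each group. Ccl2 was called with sh900 (4.16 ± 0.55, adjusted p = 0.00968) and not with sh902 (1.74 ± 0.55, adjusted p = 0.0873). The difference of sh902 from sh900 was called (-2.41 ± 0.50, adjusted p = 0.0455) but held in 1 of 9 left-out fits, with adjusted p values of 0.0590 to 0.220 in the others. The call for the mean (2.95 ± 0.51) held in 8 of 9 and was lost without the undated control (adjusted p = 0.103). The call with sh900 held in 7 of 9 and was lost without the undated control (adjusted p = 0.0590) or the 30 August sh900 library (0.0638).

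Ccl7 (chr11:82045712-82047525), a neighbour of Ccl2 on chromosome 11 with the same kind of target cells, was at 0.146, 0.231 and 0.0763 CPM with shNT, 1.25, 6.30 and 0.513 with sh900 and 1.10, 0.854 and 0.0830 with sh902. It rests on 12 counts with shNT, 212 with sh900 and 58 with sh902, and the sh902 library of 3 September was within the control range. No control library reached the cutoff, so Ccl7 was tested only because the hairpin groups were high. Ccl7 was called with sh900 (3.85 ± 0.69, adjusted p = 0.0184) and not with sh902 (2.14 ± 0.72, adjusted p = 0.0975). The difference between the hairpins was not called (-1.72 ± 0.59, adjusted p = 0.135). The call for the mean (3.00 ± 0.65, adjusted p = 0.0257) held in 3 of 9 left-out fits. The sh900 call was lost without the undated control (adjusted p = 0.0942) or the 30 August sh900 library (0.115). Ccl2 and Ccl7 are similar in sequence, as are Cxcl1 and Cxcl2, so reads that fit both of a pair were shared by a model and each value is uncertain to that extent.

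Cxcl1 (chr5:90891241-90893115), which attracts neutrophils, was near the counting floor with shNT and sh902 and higher with sh900. It was at 0.146, 0.115 and 0.0763 CPM with shNT, 2.70, 1.66 and 1.87 with sh900 and 0.122, 0.171 and 0.0415 with sh902. These are 9 counts in all with shNT, 177 with sh900 and 9 with sh902, and the sh900 libraries lay above all 6 others. No shNT or sh902 library reached the cutoff, so Cxcl1 was tested only because sh900 was high. The direction of its comparisons with sh900 was thus fixed by the filter. Summed over the group, sh900 was 18.7 times as high as shNT (95% exact interval 9.64 to 41.6, counting error only), and sh902 was 0.991 times as high (0.348 to 2.82). Cxcl1 was called with sh900 (4.16 ± 0.47, adjusted p = 0.00599), which held in 8 of 9 left-out fits and was lost without the undated sh900 library (adjusted p = 0.0505). The difference of sh902 from sh900 was called (-4.20 ± 0.47, adjusted p = 0.0184) and held in 5 of 9; it was lost without the undated or 30 August libraries of sh900 (adjusted p = 0.127 and 0.135) or of sh902 (0.165 and 0.0734). The call of Cxcl1 for the mean (2.06 ± 0.49, adjusted p = 0.0342) held in 1 of 9. Without the date label, sh902 against sh900 gave -4.16 ± 0.50 with an adjusted p of 0.0533, the lowest of any member in that fit. Cxcl2 had 0 to 3 counts per library, and Cxcl12, a chemokine that guides neural progenitors, had 0 to 20; neither passed the filter.

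**Figure D3:**
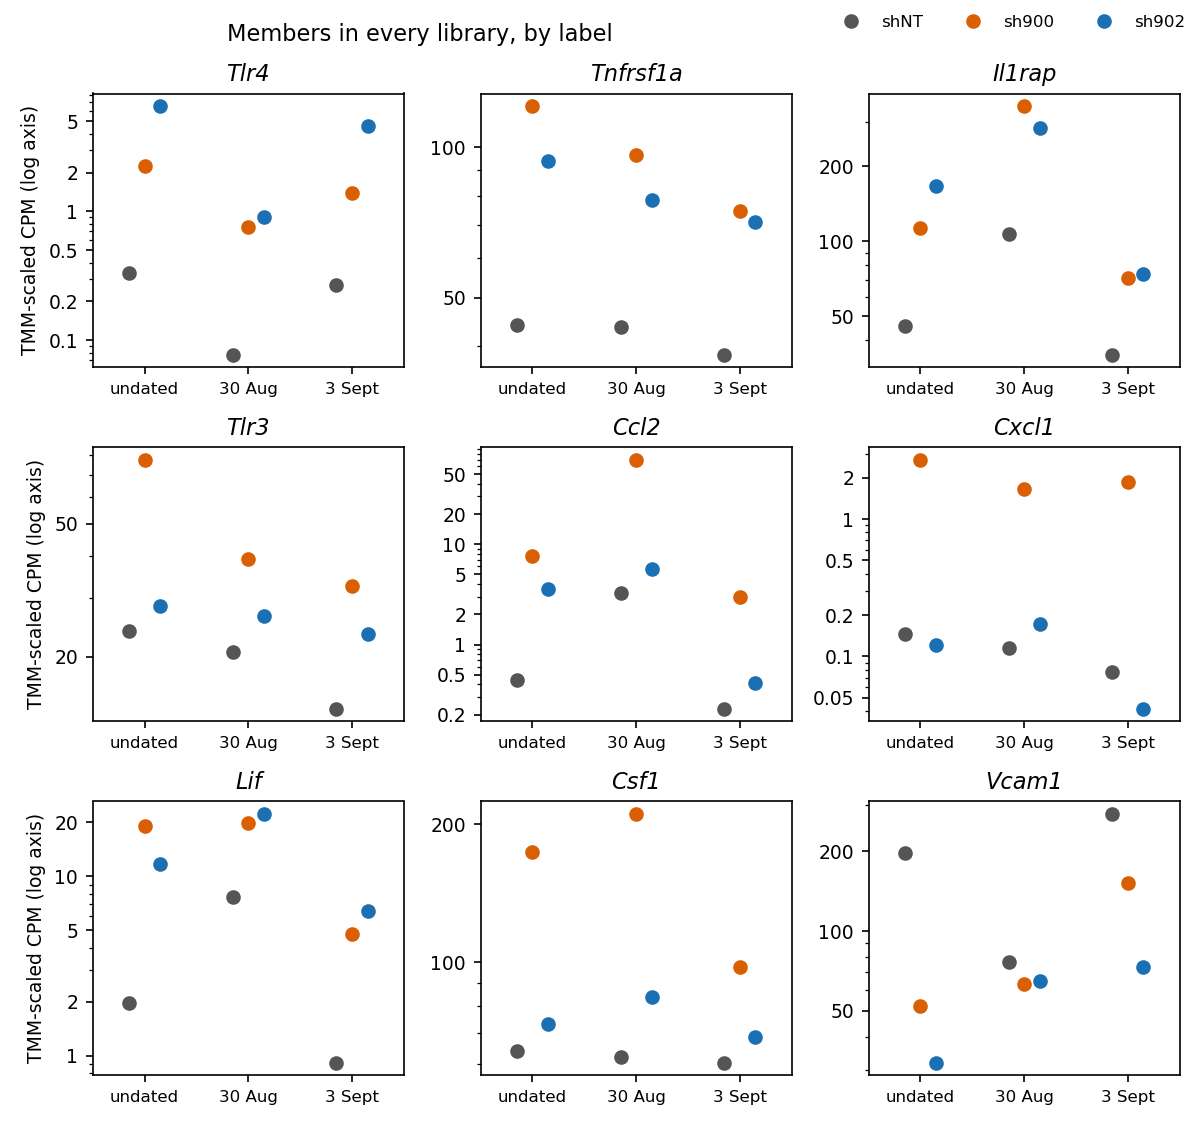
Each panel shows 1 member in the 9 libraries, with the label of the library on the horizontal axis and TMM-scaled CPM on a log vertical axis. Within every label the sh900 and sh902 points of Tlr4, Tnfrsf1a, Il1rap and Lif are above the shNT point, those of Vcam1 are below it, and Cxcl1 is high with sh900 in all 3 labels.

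Of the cytokines, Lif was called with both hairpins and Csf1 with sh900. Lif (chr11:4257557-4272514) encodes leukemia inhibitory factor, which acts on neural stem cells through gp130, and was at 1.97, 7.73 and 0.916 CPM with shNT, 19.1, 19.8 and 4.80 with sh900 and 11.7, 22.3 and 6.43 with sh902. The groups overlapped across labels, and within each label both hairpins were above the control, by 2.54 to 9.37 times. Lif was called with sh900 (2.29 ± 0.38, adjusted p = 0.0148) and with sh902 (2.21 ± 0.38, adjusted p = 0.0144), and the hairpins differed by -0.08 (95% interval -0.89 to 0.73). The call for the mean held in 8 of 9 left-out fits and was lost without the undated control (adjusted p = 0.0644). Those for sh900 and sh902 held in 6 and 5 of 9, with adjusted p values of at most 0.0773 in the others.

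Csf1 (chr3:107741048-107760469) encodes the growth factor of macrophages and microglia. It was at 63.8, 61.9 and 60.2 CPM with shNT, 174, 211 and 97.6 with sh900 and 73.1, 83.8 and 68.5 with sh902. The 3 groups did not overlap, with shNT lowest and sh900 highest. Csf1 was called with sh900 (1.32 ± 0.20, adjusted p = 0.0125) and for sh902 against sh900 (-1.05 ± 0.20, adjusted p = 0.0339), and not with sh902 against shNT (0.26 ± 0.20, adjusted p = 0.429). The sh900 call held in 6 of 9 left-out fits (adjusted p of 0.0608 to 0.0793 in the others) and the difference between hairpins in 4 of 9 (0.0691 to 0.201). The call of Csf1 for the mean (0.79 ± 0.18, adjusted p = 0.0293) held in 3 of 9. Per kilobase of exon, Csf1 stood at a mean of 30.4 CPM with sh900, after Tnfrsf1a at 37.6 and Nfkbia at 31.5. Il6 and Il11, relatives of Lif that also signal through gp130, did not pass the filter. Il6 had at most 5 counts in a library, and Il11 had 25 and 33 counts in the 30 August libraries of sh900 and sh902 and at most 6 in the other 7.

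Of the 2 adhesion receptors, Icam1 was called and Vcam1 was not. Icam1 (chr9:21015985-21028817), which binds leukocyte integrins, was at 0.512, 0.385 and 0.191 CPM with shNT, 0.933, 1.66 and 0.807 with sh900 and 1.55, 3.08 and 1.12 with sh902. All hairpin libraries lay above the controls, on 29 counts in all with shNT, 93 with sh900 and 150 with sh902. Icam1 was called with sh902 (2.32 ± 0.40, adjusted p = 0.0145) and with sh900 (1.61 ± 0.40, adjusted p = 0.0461). The sh900 call held in 0 of 9 left-out fits (adjusted p of 0.0507 to 0.166), the sh902 call in 7, being lost without the undated (0.0768) or 3 September (0.0592) sh902 library. The call for the mean held in 8 of 9 and was lost without the 3 September control (0.0615). Icam1 overlaps the antisense gene Gm47079, which had 53 counts over the 9 libraries beside 272 of Icam1.

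Vcam1 (chr3:116109949-116129688) binds integrin alpha 4 and is also known as a surface protein of adult neural stem cells. It was at 197, 76.4 and 277 CPM with shNT, 52.0, 63.3 and 152 with sh900 and 31.9, 64.9 and 73.2 with sh902. The sh902 libraries lay below all controls, the sh900 range overlapped them, and both hairpins were below the control within each label. The mean difference of -1.37 ± 0.37 was not called by edgeR (adjusted p = 0.0649), while DESeq2 with the date label called Vcam1 lower (-1.37 ± 0.34, adjusted p = 8.29e-04). The summed level of astrocyte markers was 3380, 805 and 6676 CPM with shNT, 1228, 784 and 3831 with sh900 and 1337, 778 and 2850 with sh902. All 7 of these genes passed the filter and 2 were called lower. The list was not uniform: on 30 August the sums were close, and Aldh1l1 exceeded its same-label control in every dated hairpin library. The part of astrocytes in the Vcam1 values was not tested.

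Among enzymes and effectors, Sod2 (chr17:13006846-13040063), the mitochondrial superoxide dismutase, was at 96.1, 128 and 114 CPM with shNT, 137, 155 and 136 with sh900 and 157, 151 and 175 with sh902. All 6 hairpin libraries were above the controls, by a small margin. Sod2 was called with sh902 at the edge of the threshold (0.52 ± 0.14, adjusted p = 0.049993), which held in 2 of 9 left-out fits, and not for the mean (0.43 ± 0.12, adjusted p = 0.0555). Ptgs2, the inducible cyclooxygenase COX-2, was at 7.67 CPM in the 3 September control and at 0.346 to 1.79 in the other 8 libraries, and was not called (-0.75 ± 0.83). Ptx3, a secreted pattern recognition protein, and Tnfaip2 differed by -1.11 ± 0.41 and -0.10 ± 0.58 and were not called. Tnfaip2 had all sh902 libraries below all sh900 libraries.

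The hairpins were also compared directly. Of 31 members, 3 were called lower with sh902 than with sh900, Ccl2, Cxcl1 and Csf1, and 0 higher, where 2.48% of all genes were called lower and 1.74% higher. Cxcl1 passed the filter only through the sh900 libraries, so its direction here was fixed by the filter and its call adds nothing to the count. In 7 members all sh902 libraries lay below all sh900 libraries, namely Rela, Nfkbia, Tlr2, Tlr3, Cxcl1, Csf1 and Tnfaip2, and in 1 above; among all genes the shares were 11.3% and 11.2%. Phf2 itself was at 14.9 to 25.5 CPM with sh900 and 17.0 to 28.1 with sh902, ranges that overlapped. The comparisons of sh900 and of sh902 with shNT use the same 3 controls.

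The members also differed by date label. Between the libraries of 30 August and 3 September, with the group in the model, 6 members were called higher and 3 lower (10.1% and 10.4% of all genes). Higher on 30 August were Ccl2 (4.15 ± 0.55), Ccl7 (3.11 ± 0.68), Lif (2.30 ± 0.38), Il1rap (1.95 ± 0.20), Il1r1 (1.83 ± 0.43) and Nfkb2 (1.30 ± 0.14). Ptx3 (-4.72 ± 0.60), Traf1 (-4.63 ± 0.75) and Tlr4 (-1.64 ± 0.40) were lower. Without the 3 September sh900 library, 5 members were called rather than 9. Markers of cycling cells differed between the control libraries by label: their sum was 718 CPM in the undated control, 2072 in that of 30 August and 142 in that of 3 September. In the hairpin libraries they summed to 958, 484 and 758 CPM with sh900 and 1198, 659 and 1071 with sh902. Both hairpins were thus below the control on 30 August and above it in the other labels. Of the 6 markers, 0 were called between hairpins and controls, a comparison that averages these opposed directions. Their part in the member values was not tested.

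Set against the control of the same label, the median log2 ratio of the 31 members was 0.47, 0.94 and 0.34 with sh900 and 0.25, 0.23 and 0.12 with sh902 in the undated, 30 August and 3 September libraries. For all genes these medians lay between -0.01 and 0.03. In the fit without the date label, the members' median was 0.38 for the mean of both hairpins, 0.51 for sh900 and 0.14 for sh902, with -0.03 for all genes in each. Tlr4, Ccl7 and Cxcl1, which were tested only because a hairpin group was high, are among the 31.

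**Figure D4:**
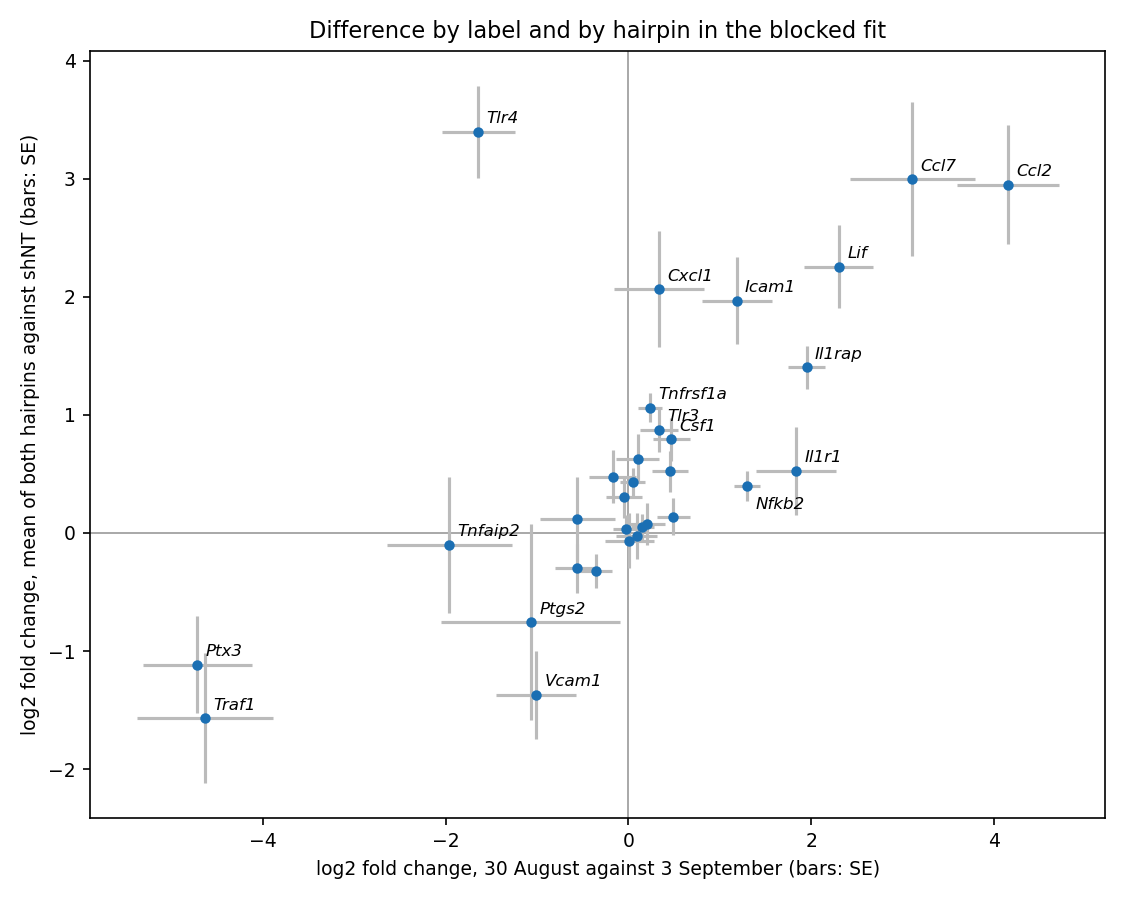
Each point is a tested member, with its log2 difference between the 30 August and 3 September libraries on the horizontal axis and that between both hairpins and shNT on the vertical axis, both from the fit with the date label and with bars of 1 standard error. Ccl2, Ccl7, Lif and Il1rap were called higher in both, while Tlr4 was called higher with the hairpins and lower on 30 August.

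Other genes of the pathway, 118 in 5 lists, were examined in the same fit. For the mean of both hairpins, 10 of the 81 that passed the filter were called higher and 3 lower. Among all genes the shares were 6.08% and 5.59%, as given above. With sh900 10 were called higher and 1 lower (5.39% and 3.45% of all genes). With sh902 5 were called higher and 8 lower (5.12% and 5.39%), so the pooled counts do not describe each hairpin. Without the date label 0 were called for the mean, with 19 at an unadjusted p under 0.05. The kinases that carry the signal, 16 of 16 tested, had 0 calls for the mean and with sh900, and 1 was called lower with sh902. Among 25 tested adaptors and ubiquitin enzymes, Traf3 (0.76 ± 0.16) and Tirap (0.47 ± 0.12), an adaptor of Toll-like receptors, were called higher for the mean and Traf4 (-0.46 ± 0.11) lower. Among 13 tested receptors and ligands, Tnfrsf12a (2.88 ± 0.27), the receptor for TWEAK, was called higher, as were Cd14 (1.04 ± 0.20), the co-receptor that hands lipopolysaccharide to Tlr4, and Ltbr (0.62 ± 0.16). Il18, a cytokine of the interleukin-1 family, was called lower (-0.66 ± 0.16). Cd14 was at 16.5, 16.5 and 6.79 CPM with sh900 and at 1.98 to 5.70 in the other 6 libraries.

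Receptors for the members' own products differed in direction. Il6ra, the receptor chain for interleukin-6, was called higher (2.88 ± 0.33), from 1.86, 4.04 and 1.07 CPM with shNT to 18.8, 47.5 and 4.07 with sh900 and 14.0, 47.7 and 3.57 with sh902. The integrin genes Itga4 (2.74 ± 0.49), whose product pairs with another chain to bind Vcam1, and Itgb2 (2.12 ± 0.36), a chain of the Icam1 receptors, were also called higher. Itga4 was at 2.10 to 11.1 CPM with shNT, 18.4 to 158 with sh900 and 9.63 to 30.7 with sh902. Itgb2 was at 0.146, 0.808 and 0.0763 CPM with shNT. Only its 30 August control was above the 0.376 CPM cutoff, so Itgb2 passed the filter only with hairpin libraries counted. Ackr3, a scavenging receptor for Cxcl12, was called lower (-1.24 ± 0.28). Lifr, the receptor for Lif, was called lower with sh902 (-0.98 ± 0.21, adjusted p = 0.0278) and was -0.22 ± 0.21 with sh900 (adjusted p = 0.547), a difference between hairpins that was not called (adjusted p = 0.0818). Its partner Il6st, which encodes gp130, was called lower with sh902 (-0.51 ± 0.12, adjusted p = 0.0367) and lower with sh902 than with sh900 (-0.60 ± 0.12, adjusted p = 0.0385). Among 18 tested targets, Ier3 (2.32 ± 0.41) and Bcl2l1 (0.77 ± 0.20), an inhibitor of apoptosis, were called higher for the mean. With sh900 by itself 4 of the 18 were called higher, and with sh902 by itself 0 were called. The ligands Tnf, Il1a and Il1b did not pass the filter, and Il1b had no count in any hairpin library.

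Immune and vessel cells express many members, and their markers were low. The 14 microglia and macrophage markers summed to 2.23 to 3.03 CPM with shNT, 1.76 to 5.05 with sh900 and 3.32 to 4.87 with sh902, a range above the controls. Some members were as low: Tlr4 reached at most 6.58 CPM and Icam1 at most 3.08. Tyrobp, C1qa and C1qb were at 0 in all 9 libraries, 2 markers passed the filter, Cd68 and P2ry12, and 1 of them was called higher. Csf1r, the receptor for Csf1, was at 0.115 to 0.670 CPM. The 8 endothelial markers summed to 5.46 to 10.1, 4.44 to 6.31 and 3.90 to 5.38 CPM in the same order, with 0 called higher and 1 lower. The 10 fibroblast and pericyte markers summed to 3.38 to 31.6, 6.18 to 22.1 and 4.20 to 16.0 CPM, with 0 called higher and 1 lower. Neuron markers summed to 692 to 1934, 614 to 1090 and 475 to 866 CPM, and oligodendrocyte lineage markers to 1984 to 2988, 2292 to 3095 and 1272 to 2023 CPM. In each of these last lists 5 genes were called lower and 0 higher. The part of any of these cell types in the member values was not tested.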

How the data were processed

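Estimated counts per gene were deposited by the authors for 9 libraries; they were already whole, so rounding changed 0 values. Per the submitters' processing notes Trimmomatic 0.36, cutadapt, FastQC, RSEM and STAR 2.5.0a were used, in an order not stated, and the build was GRCm38. The annotation release is not given in the sources used here. RSEM divides reads that fit several genes by a model. Symbols and coordinates were taken from GENCODE M21 on GRCm38, with 54165 of 54232 identifiers matched.

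The tests ran in R 4.3.3 with edgeR 4.0.16 (TMM factors, default expression filter by group, robust quasi-likelihood F test, 9 libraries in 1 model); 99.9% of counts were in the 17602 genes tested. The fit planned as the main one had no date label; the fit with it as a replicate block stands beside it because it changes the calls. Deviations from group means correlated at 0.40 to 0.63 between libraries of 30 August, 0.46 to 0.64 between those of 3 September, 0.08 to 0.40 between undated ones, which share only the lack of a date, and -0.66 to 0.30 across labels. The dated libraries therefore count as paired and the undated ones may not be. Standard errors are the log2 fold change over the square root of F. DESeq2 1.42.0, RLE factors, no filter, omitting each library and keeping only the dated libraries were alternatives. The lowest chi-square per degree of freedom between replicates was 56.5, so none was a duplicate. The scripts were tested on simulated data. Intervals on summed counts cover counting error only, as PCR copies are no separate molecules.

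The members, the other lists and the tests were chosen with earlier results of these data known. Members given in full were those called in the blocked fit for the mean, sh900 or sh902, and the member of each role with the highest mean CPM, 17 in all. Wider pathway genes were named where called for the mean; Il6st, Lifr, Csf1r, Tnf, Il1a and Il1b were named after their values were seen.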

Additional observations from a re-analysis of the deposited data

Results flagged for a closer look

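In several members, both hairpin libraries of one label were above the control of that label and both of another label were below it, or the reverse. The values that follow are differences between labels in the mean log2 ratio of both hairpins to the same-label control, and none of these differences was tested. The largest was that of Ptgs2, the cyclooxygenase gene: its mean ratio was 2.08 on 30 August and -2.54 on 3 September, a difference of 4.62, and the undated ratio minus that of 30 August was -2.62. Ptgs2 was at 0.346 CPM in the 30 August control and at 7.67 in that of 3 September. Tnfaip2 differed by -2.06 between the undated and 3 September labels, and Tlr2 by -1.55 between the undated and 30 August labels.

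Subunits and inhibitors showed smaller differences of this kind. Relb differed by 0.65 between 30 August and 3 September and by -1.22 between the undated label and 30 August. Rel differed by 0.61 between the undated label and 30 August and by 0.71 between the undated label and 3 September. Nfkbia differed by -0.74 and -0.72 in the same order, with its undated ratio at -0.17 and the dated ones at 0.57 and 0.55. Nfkbib differed by 0.52 between the undated label and 3 September. Nfkbie differed by 0.34 between 30 August and 3 September and by -0.72 between the undated label and 30 August. None of these 8 genes was called with either hairpin. Some single log2 ratios behind these differences were small and show no clear direction. Examples are -0.012 for Ptgs2 in undated sh902, -0.030 for Nfkbia in undated sh900 and -0.035 for Relb in 3 September sh900.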

How the results depend on the processing

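No called value of a single gene changed direction among the 898 computed under the alternatives; 135 lost a call and 97 gained one. For the mean of both hairpins, the replicate block moved the count of members called from 0 to 10, DESeq2 to 6 and DESeq2 with the block to 14. For sh900 it moved from 0 to 12 with the block, 7 with DESeq2, 14 with both, 3 with no filter and 1 in the blocked fit on the 6 dated libraries; for sh902, from 0 to 6, 4 and 9 with the block, DESeq2 and both. For sh902 against sh900 it moved from 0 to 3, 1 and 8 with these and to 2 with no filter. Without the block, leaving out a library gave 0 to 3 calls for sh900 (3 without the 3 September sh900 library) and 0 to 2 for sh902 against sh900. In the blocked fit, counts ran from 4 to 11 for the mean (6 without the 3 September sh902 library), 2 to 12 for sh900 (2 without the undated control or the 30 August sh900 library), 1 to 8 for sh902 (1 without its undated library) and 0 to 5 between hairpins. The dated libraries alone gave 0, 1, 0 and 0 with the block. The comparison by label ran from 5 to 11 members against 9. With a library left out, in either fit, the members' median for the mean, 0.38, ran from 0.21 (blocked, without the 30 August control) to 0.54, that for sh900, 0.51, from 0.36 to 0.76, and that for sh902, 0.14, from 0.068 (without its undated library) to 0.28 (without its 3 September library). RLE factors moved no count by over 1.5 times. The cause of these shifts was not tested, and fits that leave out a library also hold fewer libraries. Members under about 1 CPM rest on few counts.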
